A study of Homo sapiens with 24 samples.

Results

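Genes that encode the sensors of double-stranded RNA and their regulators were followed through all 24 libraries of the study. They are RIGI, IFIH1, DHX58, MAVS, TLR3, EIF2AK2, ADAR, ZNFX1 and TRIM25, chosen by name, and the gene identifiers of the count tables were matched to these symbols, so that 9 of the 58735 genes listed are described and all 9 were found. RNA was sequenced from HCT116 cells, a human colorectal carcinoma line of epithelial origin that carries a doxycycline-inducible OsTIR1, the plant receptor through which auxin marks AID-tagged proteins for degradation. WT cells had OsTIR1 and no tag, UHRF1-AID cells had UHRF1 tagged at its C-terminus with AID and mClover, DNMT1-AID cells had DNMT1 tagged at its N-terminus with AID and mRuby2, and UHRF1-AID/DNMT1-AID cells, the double line, had both. Each line was taken before auxin (day 0) and after 4 days (day 4) in 500 µM auxin and 2 µg/mL doxycycline, which followed 1 day in doxycycline with 20 µM auxinole, and WT cells at day 4 received the same agents as the tagged lines. There were 8 groups of 3 libraries. Each tagged line was made as 3 clones and the labels do not tie a library to a clone, so p-values measure the spread between these libraries.

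RIG-I (RIGI), MDA5 (IFIH1) and LGP2 (DHX58) are helicases of the cytosol that bind double-stranded RNA: RIG-I prefers ends that carry a triphosphate, MDA5 forms filaments along long duplexes, and LGP2, which lacks the signalling domains of its relatives, modulates them. RIG-I and MDA5 signal through the mitochondrial adaptor MAVS, and TRIM25 is a ubiquitin ligase that promotes signalling by RIG-I. TLR3 detects double-stranded RNA in endosomes, PKR (EIF2AK2) stops translation when it binds it, the deaminase ADAR edits adenosines in it and so keeps cellular duplexes from being sensed, and ZNFX1 is an RNA helicase of the antiviral response. Several of these genes are themselves induced by interferon, and loss of DNA methylation is known to raise transcripts of endogenous retroviruses that can form double-stranded RNA in tumour cells.

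The libraries held between 15824804 and 25073821 counts on genes. The epithelial markers were present throughout (summed level of 8 genes between 4470 and 9770 CPM, counts scaled to library size with TMM factors over the 24 libraries). Of 9 markers of other cell types, 6, among them PTPRC, CD3E and GFAP, stayed under 1 CPM in every library, and CD14, PECAM1 and COL1A1 did not. The summed level of the 9 was 18.7 to 22.4 CPM in the double line at day 4 and 3.41 to 9.07 CPM in WT cells at day 4, with 5.78 to 12.1 CPM in UHRF1-AID and 9.85 to 14.5 CPM in DNMT1-AID libraries of that day. In the double line against WT, COL1A1 (1.64 ± 0.30 SE, adjusted p = 0.00278) and CD14 (0 counts in each WT library and 10 to 23 in those of the double line, adjusted p = 5.43e-05 in edgeR) were called higher. CD14 passed the filter on low counts only through the double line, so only a call of higher was open to it. The part of these markers in the results was not tested. The tag acts on the protein, so transcripts of UHRF1 and DNMT1 do not check the depletion: at day 4 UHRF1 stood at 34.7 to 80.7 CPM in UHRF1-AID and 17.7 to 34.6 CPM in WT libraries, and DNMT1 at 13.2 to 16.7 CPM in DNMT1-AID and 23.8 to 46.1 CPM in WT libraries. Counts relative to the other libraries of the same day fell with gene length in WT day 0 replicate 3 and DNMT1-AID day 0 replicates 1 and 2 (Spearman's rho across 15699 genes of -0.266, -0.269 and -0.232), and rho lay between -0.191 and 0.292 in the other 21. The file headers name 2 alignment folders, of which the first holds the 12 libraries of day 0 with those of UHRF1-AID at day 4 and the second the other 9. Spike-ins, which entered neither library sizes nor tests, differed in the same way. They made up 0.89 to 1.65% of counts in libraries of the second folder and 0% in those of the first. UHRF1-AID against WT at day 4, and day 4 against day 0 in the other 3 lines, therefore run between folders, and there the folder and the group cannot be told apart. DNMT1-AID and the double line against WT at day 4, and UHRF1-AID at day 4 against day 0, lie within 1 folder.

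The promoters are shown for 4 genes that rose at day 4 in the fits given further on, since their letters hold elements of the kind that interferon-activated factors bind. RefSeq promoter windows of GRCh38.p14, from 250 bases before to 50 after the start site, were matched for 7 of the 9 genes by symbol; DHX58 and ZNFX1 had no entry. Each is written 5′ to 3′ along the gene, with matches to GAAANNGAA or AANNGAAA on either strand in capitals. The first is a shortened interferon-stimulated response element and the second a core of the interferon regulatory factor site, and the matches of both can overlap. The second was added after the windows had been read.
RIGI, chr9:32526147-32526446, minus strand: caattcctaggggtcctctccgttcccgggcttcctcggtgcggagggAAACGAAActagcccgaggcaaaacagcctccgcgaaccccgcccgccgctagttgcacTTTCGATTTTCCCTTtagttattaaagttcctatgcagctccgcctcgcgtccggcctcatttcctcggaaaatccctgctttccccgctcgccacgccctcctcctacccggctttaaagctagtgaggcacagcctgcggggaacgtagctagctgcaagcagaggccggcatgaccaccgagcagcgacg
IFIH1, chr2:162318635-162318934, minus strand: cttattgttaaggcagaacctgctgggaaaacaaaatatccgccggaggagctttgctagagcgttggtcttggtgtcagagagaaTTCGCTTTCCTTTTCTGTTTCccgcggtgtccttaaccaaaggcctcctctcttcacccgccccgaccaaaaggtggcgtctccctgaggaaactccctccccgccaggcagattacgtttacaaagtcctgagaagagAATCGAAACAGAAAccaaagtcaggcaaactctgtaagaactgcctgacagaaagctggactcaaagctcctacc
TLR3, chr4:186068906-186069205, plus strand: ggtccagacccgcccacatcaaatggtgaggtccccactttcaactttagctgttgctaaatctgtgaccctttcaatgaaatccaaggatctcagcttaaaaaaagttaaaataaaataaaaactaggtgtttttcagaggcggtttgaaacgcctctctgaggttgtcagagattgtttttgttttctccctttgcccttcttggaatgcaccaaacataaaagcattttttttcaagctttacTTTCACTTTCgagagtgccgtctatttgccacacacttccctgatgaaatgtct
EIF2AK2, chr2:37156931-37157230, minus strand: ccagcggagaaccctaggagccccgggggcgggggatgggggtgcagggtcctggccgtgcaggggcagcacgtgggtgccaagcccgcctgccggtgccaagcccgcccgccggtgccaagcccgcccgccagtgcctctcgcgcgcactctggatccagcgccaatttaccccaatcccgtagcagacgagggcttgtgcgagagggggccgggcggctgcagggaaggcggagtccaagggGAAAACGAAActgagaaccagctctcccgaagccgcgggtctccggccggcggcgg
The IFIH1 window held 4 matches to GAAANNGAA, 3 of them overlapping on the opposite strand, with first bases at -164, -158 and -152 from the start site, and 1 on the gene's own strand at -21. TLR3 and EIF2AK2 each held 1, with its first base at -3 and -6, and RIGI held none. Of 35116 promoters of the same length, 8.11% held GAAANNGAA. RIGI held 3 matches to AANNGAAA, IFIH1 4, and TLR3, EIF2AK2 and TRIM25 1 each, against 22.8% of all promoters with at least 1. The windows of MAVS and ADAR (3 windows) held neither motif. The CG count differed widely among the genes. TLR3 had 5 CG dinucleotides and IFIH1 12, against a median of 14 in all promoters, and RIGI had 27, EIF2AK2 30, MAVS 34 and TRIM25 37. The matches describe letters in these windows, and no binding or methylation was measured here.

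Most of the 9 genes had higher means at day 4 than at day 0, and for RIGI, IFIH1, DHX58, EIF2AK2 and ZNFX1 every library of a tagged line at day 4 stood above every WT library of that day. Divided by exon length (CPM per kb), ADAR was the highest of the 9 in each of the 4 lines at day 0, for instance 18.2 CPM per kb in WT cells, and DHX58 the lowest at 0.117. RIGI stood sixth at day 0 with 2.07 CPM per kb in WT cells. At day 4 it was second after ADAR in WT (13.2 against 22.4), UHRF1-AID (30.6 against 33.6) and DNMT1-AID cells, and first in the double line (33.4 against 28.1). DHX58 passed TLR3 and MAVS at day 4 in the 3 tagged lines and not in WT cells. No library of day 4 overlapped a library of day 0 for RIGI, IFIH1, DHX58, TLR3 and EIF2AK2, whereas the days overlapped for MAVS, ADAR, ZNFX1 and TRIM25. The share of all genes that separate in these ways, between lines at day 4 or between days, was not counted.

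**Figure D1:**
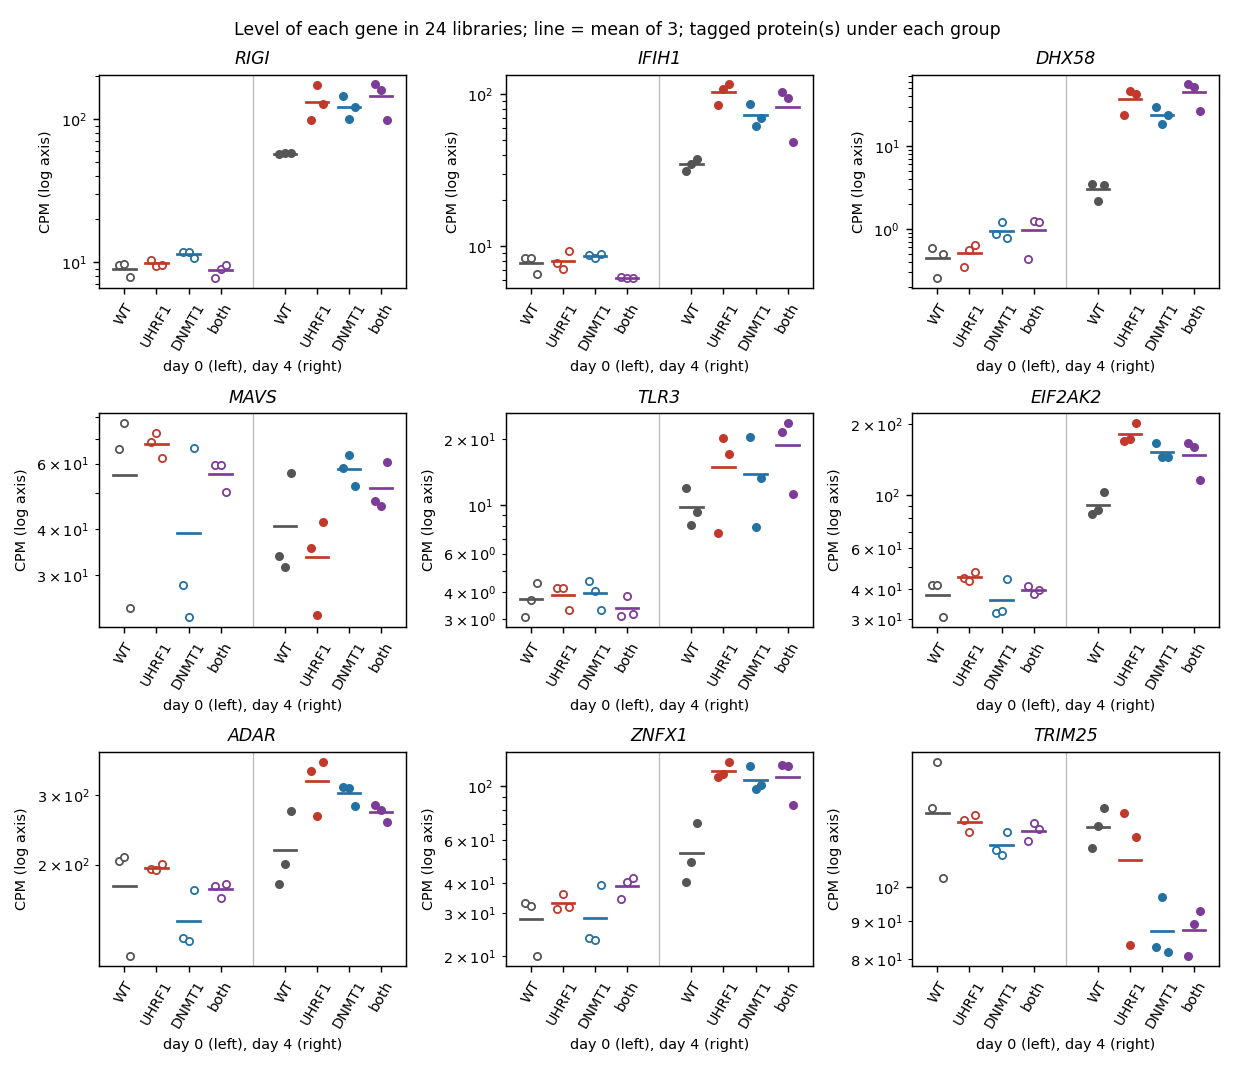
Level of each of the 9 genes in the 24 libraries, in CPM on a log axis. Open points are day 0 and filled points day 4, each group has 3 libraries with its mean as a line, and the group is named by the tagged protein (both, the double line). RIGI lies between 7.72 and 11.7 CPM at day 0 and between 57.2 and 176.3 CPM at day 4, with the 9 tagged-line libraries of day 4 above the 3 of WT.

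The first question was how the genes differed between each tagged line and WT after 4 days of the same agents. A gene was called where its adjusted p in edgeR's quasi-likelihood test was under 0.05 and its log2 fold change was over 1 in size. RIGI, IFIH1, DHX58 and ZNFX1 were called higher in all 3 tagged lines and EIF2AK2 in UHRF1-AID cells. EIF2AK2 was also higher in DNMT1-AID cells (0.75, adjusted p = 0.000470) and in the double line (0.70, adjusted p = 0.00109), under the minimum fold change. DHX58 showed by far the largest fold changes. In UHRF1-AID cells 5 of the 9 genes were called, all higher, where 6.99% of all tested genes were called in either direction. In DNMT1-AID cells 4 were called, all higher, against 2.57% of all genes, and in the double line 4, all higher, against 11.7%. Without the minimum fold change, 6 genes passed in UHRF1-AID cells, all higher (17.4% of all genes). In DNMT1-AID cells 5 were higher and 1 lower (7.95% of all genes), and in the double line 6 were higher and 1 lower (38.2%). Single libraries moved these counts: 3 were called in UHRF1-AID cells without WT replicate 1, 1 in DNMT1-AID cells without their replicate 1, and 2 in the double line without WT replicate 2 or without its own replicates 1 or 2. DHX58 was called in each of these fits. The median log2 fold change of the 9 genes was 1.03, 0.75 and 0.95 in the 3 lines, beside 0.027, 0.00167 and 0.016 over all tested genes. The 3 comparisons share the WT libraries and are not independent, and in bulk RNA fewer cells with a transcript and less of it per cell cannot be told apart.

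**Figure D2:**
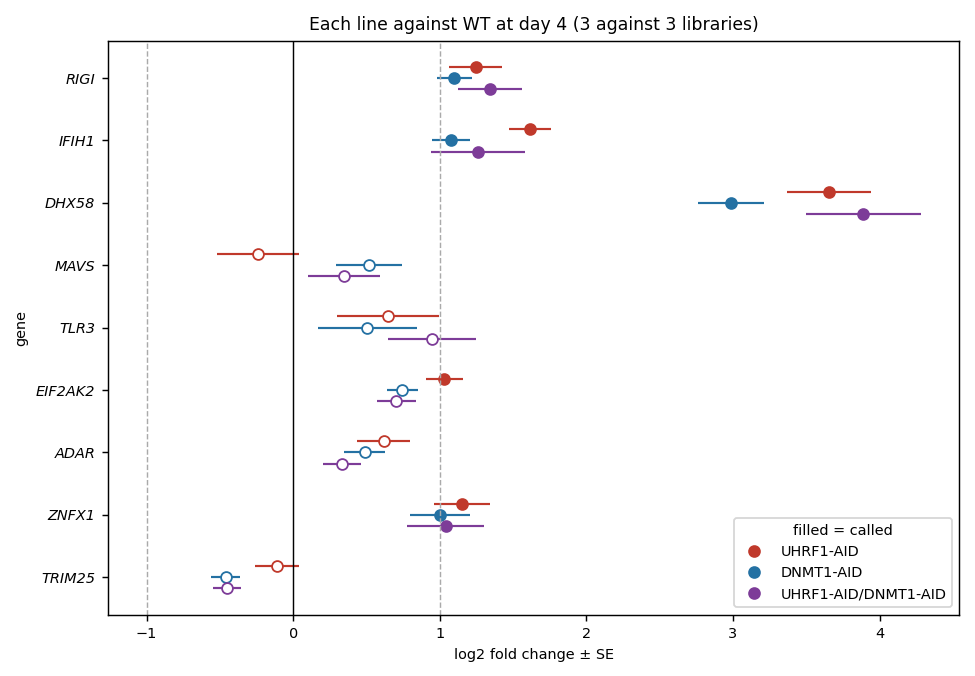
Log2 fold change of each gene against WT at day 4 (x axis, ± SE) in the 3 tagged lines, 3 against 3 libraries. Filled points were called, and dashed lines mark a log2 fold change of 1 in either direction. DHX58 stands apart at 2.99 to 3.89, while RIGI, IFIH1 and ZNFX1 lie between 1.00 and 1.62.

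RIGI (chr9:32455705-32526324, hg38, minus strand, counted over exons as all genes here) was at 57.2, 58.0 and 57.8 CPM in the 3 WT libraries of day 4. It was at 98.8, 173 and 128 CPM in UHRF1-AID, 146, 101 and 122 CPM in DNMT1-AID and 176, 162 and 98.7 CPM in the double line. The lowest tagged-line library was thus above every WT library, and the WT libraries lay within 1 CPM of each other while the tagged lines spread widely. Against WT the log2 fold change was 1.25 ± 0.18 (SE, adjusted p = 0.00267) in UHRF1-AID cells, 1.10 ± 0.12 (SE, adjusted p = 5.00e-05) in DNMT1-AID cells and 1.34 ± 0.22 (SE, adjusted p = 0.00479) in the double line. The call fell under the minimum fold change without UHRF1-AID replicate 2 (log2 fold change 0.98) or without DNMT1-AID replicate 1 (0.97). At day 0 RIGI stood between 7.72 and 11.7 CPM in all 12 libraries. From lowest to highest mean the order of the 8 groups was the double line, WT, UHRF1-AID and DNMT1-AID at day 0, then WT, DNMT1-AID, UHRF1-AID and the double line at day 4. Neighbours overlapped except DNMT1-AID and UHRF1-AID at day 0, DNMT1-AID at day 0 and WT at day 4, and WT and DNMT1-AID at day 4.

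IFIH1 (chr2:162267079-162318703, minus strand), the sensor of long duplexes, was at 31.4, 34.7 and 37.6 CPM in WT cells at day 4. It was at 85.4, 109 and 117 CPM in UHRF1-AID, 86.5, 61.5 and 70.1 CPM in DNMT1-AID and 104, 94.1 and 48.9 CPM in the double line. Again no tagged-line library overlapped WT, and the third library of the double line lay nearest to it. The log2 fold change against WT was 1.62 ± 0.14 (SE, adjusted p = 0.000134), 1.08 ± 0.13 (SE, adjusted p = 0.000128) and 1.26 ± 0.32 (SE, adjusted p = 0.0383) in the same order. In the double line the adjusted p rose above 0.05 without any 1 of WT replicates 1, 2 or 3 (log2 fold changes 1.19, 1.26 and 1.31) or of the line's replicates 1 or 2 (1.03 and 1.15), and it was called without replicate 3. In DNMT1-AID cells the value without replicate 1 was 0.94, under the minimum fold change. At day 0 the double line was lowest, at 6.23, 6.17 and 6.16 CPM, below all WT libraries (8.40, 8.38 and 6.60 CPM), a difference that did not pass the test (log2 fold change -0.34 ± 0.16 SE, adjusted p = 0.295).

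DHX58 (chr17:42101404-42112733, minus strand), the modulator of the other helicases, had the lowest level of the 9 at day 0 and the largest fold changes against WT at day 4. WT cells at day 4 held 3.53, 2.18 and 3.39 CPM (55, 36 and 55 counts). UHRF1-AID libraries held 23.9, 45.7 and 42.4 CPM, DNMT1-AID libraries 29.8, 18.6 and 23.5 CPM and libraries of the double line 55.7, 52.0 and 26.7 CPM. The group means were 12.3, 7.89 and 14.8 times that of WT, with no overlap. The log2 fold change was 3.65 ± 0.29 (SE, adjusted p = 0.000134), 2.99 ± 0.22 (SE, adjusted p = 2.32e-06) and 3.89 ± 0.39 (SE, adjusted p = 0.000852), and DHX58 was called in each of the 13 alternative fits of each line. Before auxin the libraries held 5 to 30 counts. DNMT1-AID libraries (0.879, 1.204 and 0.772 CPM) lay above WT libraries (0.586, 0.255 and 0.504 CPM) without overlap, with a log2 fold change of 1.04 ± 0.42 (SE, adjusted p = 0.801), so that no difference was detectable at this depth.

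ZNFX1 (chr20:49237946-49278426, minus strand), the RNA helicase, was at 40.2, 49.0 and 70.5 CPM in WT cells at day 4, a wide spread. It was at 109, 112 and 126 CPM in UHRF1-AID, 120.4, 97.0 and 101 CPM in DNMT1-AID and 122, 121 and 83.6 CPM in the double line. All 9 were above WT, with log2 fold changes of 1.15 ± 0.19 (SE, adjusted p = 0.00475), 1.00 ± 0.20 (SE, adjusted p = 0.0295) and 1.04 ± 0.26 (SE, adjusted p = 0.0320). These calls lay close to the minimum fold change and depended on single libraries and, in DNMT1-AID cells, on the fit. In UHRF1-AID cells the value fell to 0.98 without WT replicate 1. In DNMT1-AID cells ZNFX1 was called in 5 of 13 alternative fits: the values without WT replicates 1 and 2 were 0.84 and 0.95, and those without the line's replicates 1, 2 and 3 were 0.91, 1.07 and 1.04, those without replicates 2 and 3 with an adjusted p above 0.05. There it was 0.997 with DESeq2, 0.998 with all 24 libraries in 1 fit and 0.98 with an offset for gene length. In the double line the call was lost without WT replicates 1 (0.87) or 2 (0.98) or the line's replicates 1 (0.93) or 2 (0.95). The exons of ZNFX1 overlap those of ZFAS1 on the opposite strand by 249 bases and those of DDX27 by 203 bases, and whether strand was used in counting is not given in the sources used here, so its counts are uncertain to that extent. ZFAS1 was at 65.9, 66.6 and 68.3 CPM in WT and 41.7, 58.2 and 39.6 CPM in UHRF1-AID cells at day 4, lower where ZNFX1 was higher. It was at 80.4, 90.8 and 115 CPM in DNMT1-AID libraries and 91.4, 118 and 92.1 CPM in those of the double line, all 6 above WT, as those of ZNFX1 were.

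EIF2AK2 (chr2:37099210-37157065, minus strand), which encodes the translation-stopping kinase PKR, was at 83.7, 86.6 and 104 CPM in WT, 170.2, 174 and 203 CPM in UHRF1-AID, 167, 146 and 145 CPM in DNMT1-AID and 167, 159.9 and 117 CPM in the double line at day 4. Every tagged-line library was above every WT library. The log2 fold change was 1.03 ± 0.13 (SE, adjusted p = 0.000939) in UHRF1-AID, 0.75 ± 0.10 (SE, adjusted p = 0.000470) in DNMT1-AID and 0.70 ± 0.13 (SE, adjusted p = 0.00109) in the double line, so all 3 passed at an adjusted p under 0.05 and the first also at the minimum fold change. That call held in 8 of 13 alternative fits. It was lost without WT replicate 1 (0.97), WT replicate 2 (0.99) or UHRF1-AID replicate 3 (0.93), with an offset for gene length (0.88) and with all 24 libraries in 1 fit (0.996). At day 0 the libraries stood between 30.6 and 47.3 CPM. The exons of EIF2AK2 overlap those of GPATCH11 by 35 bases and those of ARL14EPP1, at 0 counts, by 401, both on the opposite strand.

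TLR3 (chr4:186069152-186088069, plus strand), the endosomal receptor, had the widest range of the 9 on the log2 scale in UHRF1-AID and in DNMT1-AID libraries. It was at 12.02, 8.12 and 9.26 CPM in WT, 7.44, 20.3 and 17.1 CPM in UHRF1-AID, 20.4, 7.91 and 13.3 CPM in DNMT1-AID and 21.5, 23.7 and 11.2 CPM in the double line at day 4. The lines overlapped WT, and 1 library of UHRF1-AID and 1 of DNMT1-AID cells lay below all 3 of WT. The log2 fold change was 0.65 ± 0.35 (SE, adjusted p = 0.237), 0.51 ± 0.34 (SE, adjusted p = 0.404) and 0.95 ± 0.30 (SE, adjusted p = 0.0430), the last passing without the minimum fold change. It was called in the double line without that line's replicate 3 (log2 fold change 1.21) or without WT replicate 1 (1.12). At day 0 it lay between 3.08 and 4.50 CPM in all 12 libraries.

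ADAR (chr1:154582057-154628013, minus strand), the deaminase, was at 179, 201 and 273 CPM in WT, 345, 267 and 365 CPM in UHRF1-AID, 315, 314 and 282 CPM in DNMT1-AID and 283, 275 and 258 CPM in the double line at day 4. Only the DNMT1-AID libraries lay wholly above WT. The log2 fold change was 0.62 ± 0.18 (SE, adjusted p = 0.0463), 0.49 ± 0.14 (SE, adjusted p = 0.0622) and 0.33 ± 0.13 (SE, adjusted p = 0.0623), and none was called. ADAR has a constitutive and an interferon-inducible transcript, which the counts per gene do not separate.

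MAVS (chr20:3846799-3876123, plus strand), the shared adaptor, was at 33.9, 31.5 and 56.5 CPM in WT, 35.5, 23.5 and 41.8 CPM in UHRF1-AID, 58.4, 63.1 and 52.3 CPM in DNMT1-AID and 47.6, 46.0 and 60.6 CPM in the double line at day 4. It was not called in any line, with log2 fold changes against WT of -0.24 ± 0.28 (SE, adjusted p = 0.593), 0.52 ± 0.22 (SE, adjusted p = 0.213) and 0.35 ± 0.25 (SE, adjusted p = 0.330). At day 0 it was at 65.6, 77.1 and 24.5 CPM in WT and 28.2, 23.2 and 65.9 CPM in DNMT1-AID cells, and the 3 libraries under 30 CPM are the 3 in which counts fell with gene length. MAVS has the longest summed exons of the 9 genes, 11771 bases.

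TRIM25 (chr17:56836387-56914080, minus strand), the ubiquitin ligase, was the only one of the 9 that stood lower against WT at an adjusted p under 0.05. It was at 113, 121 and 128 CPM in WT, 126, 83.6 and 117 CPM in UHRF1-AID, 83.1, 96.9 and 81.8 CPM in DNMT1-AID and 80.8, 89.2 and 92.8 CPM in the double line at day 4. Libraries of DNMT1-AID cells and of the double line lay below all WT libraries, while UHRF1-AID libraries overlapped them. The log2 fold change was -0.11 ± 0.15 (SE, adjusted p = 0.649), -0.46 ± 0.099 (SE, adjusted p = 0.0105) and -0.45 ± 0.095 (SE, adjusted p = 0.000758), under the minimum fold change throughout. Its exons overlap those of DGKE, C17orf67 and MIR3614 by 80, 132 and 86 bases, and 538 bases of an antisense gene that was at 0 counts.

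The second question was whether the genes already differed before auxin. None of the 9 was called by edgeR in any line against WT at day 0, where 0% (UHRF1-AID), 0.00723% (DNMT1-AID) and 1.31% (the double line) of all tested genes were. DESeq2 also called 0 in each. At an unadjusted p under 0.05 there were 0, 1 and 0 of the 9, the 1 being DHX58 in DNMT1-AID cells, where 512 of 13894, 711 of 13833 and 2836 of 14023 tested genes were. The median log2 fold change of the 9 was 0.16, -0.017 and -0.040, beside 0.00819, -0.011 and 0.011 over all genes.

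The third comparison was day 4 against day 0 within a line, where WT cells had the agents and no tag. In WT cells RIGI rose from 9.53, 9.70 and 7.84 CPM to the day 4 values above, 6.39 times by the group means, and IFIH1, DHX58, TLR3 and EIF2AK2 rose too. Their log2 fold changes were 2.65 ± 0.13 (SE, adjusted p = 8.30e-06) for RIGI, 2.13 ± 0.15 (SE, adjusted p = 6.60e-05) for IFIH1 and 2.72 ± 0.38 (SE, adjusted p = 0.000893) for DHX58. TLR3 rose by 1.38 ± 0.21 (SE, adjusted p = 0.00188) and EIF2AK2 by 1.24 ± 0.16 (SE, adjusted p = 0.000680). So 5 of the 9 were called higher and 0 lower, where 11.9% of all genes were called in either direction. ZNFX1 passed without the minimum fold change (0.88 ± 0.27 SE, adjusted p = 0.0390; 35.6% of all genes passed so) and was called without WT day 4 replicate 1 (1.06) or with an offset for gene length (1.05). MAVS, ADAR and TRIM25 did not pass, at -0.48 ± 0.48, 0.28 ± 0.26 and -0.084 ± 0.15. The 2 days of WT lie in different alignment folders.

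RIGI, IFIH1, DHX58, TLR3, EIF2AK2 and ZNFX1 rose from day 0 to day 4 in every tagged line. In UHRF1-AID cells, whose days share a folder, RIGI rose by 3.81 ± 0.19 (SE, adjusted p = 5.42e-06), IFIH1 by 3.72 ± 0.16 (SE, adjusted p = 2.45e-06) and DHX58 by 6.18 ± 0.37 (SE, adjusted p = 5.42e-06) on the log2 scale. TLR3, EIF2AK2 and ZNFX1 rose by 1.98 ± 0.34, 2.05 ± 0.11 and 1.84 ± 0.12, so that 6 of the 9 were called, against 21.9% of all genes. Without the minimum fold change ADAR (0.77 ± 0.13 SE, adjusted p = 0.00107) also passed as higher and MAVS (-0.97 ± 0.19 SE, adjusted p = 0.00265) as lower, where 49.4% of all genes passed. MAVS went from 68.4, 72.3 and 62.2 to 35.5, 23.5 and 41.8 CPM without overlap, and its fall passed the minimum fold change without UHRF1-AID day 0 replicate 3 (-1.03), day 4 replicate 1 (-1.02) or day 4 replicate 3 (-1.17), and with all 24 libraries in 1 fit (-1.01).

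In DNMT1-AID cells 7 of the 9 were called higher (15.3% of all genes were called). RIGI rose by 3.43 ± 0.15 (SE, adjusted p = 5.36e-07), IFIH1 by 3.07 ± 0.15 (SE, adjusted p = 1.01e-06) and DHX58 by 4.64 ± 0.26 (SE, adjusted p = 2.15e-06), and ADAR, from 130.1, 128 and 173 CPM at day 0, by 1.07 ± 0.14 (SE, adjusted p = 0.000237). The call of ADAR was lost without DNMT1-AID day 0 replicate 2, at just under 1, and without the 3 libraries whose counts fell with gene length, 2 of which are day 0 libraries of this line (0.81). TLR3, called at 1.80 ± 0.32 (SE, adjusted p = 0.00200), also lost its call there, at 2.05, adjusted p = 0.0523, with 1 library left at day 0 that was taken to vary like the others. MAVS was not called (0.56 ± 0.41 SE, adjusted p = 0.324) and reached 1.17 without day 0 replicate 3, the only 1 of the 3 above 30 CPM. Over the alternatives other than single libraries left out, the log2 fold change of MAVS ran from -0.19 to 0.72, so its direction was not stable. TRIM25 passed as lower without the minimum fold change (-0.39 ± 0.11 SE, adjusted p = 0.0206), as did 40.4% of all genes in either direction. In the double line 6 of the 9 were called higher (26.6% of all genes), with RIGI at 4.04 ± 0.28 (SE, adjusted p = 0.000133), IFIH1 at 3.73 ± 0.37 (SE, adjusted p = 0.000809), DHX58 at 5.51 ± 0.62 (SE, adjusted p = 0.000552) and TLR3 at 2.47 ± 0.28 (SE, adjusted p = 4.70e-05). ADAR passed as higher (0.64 ± 0.072 SE, adjusted p = 3.85e-07) and TRIM25 as lower (-0.45 ± 0.075 SE, adjusted p = 4.12e-05) without the minimum fold change, where 67.8% of all genes passed.

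**Figure D3:**
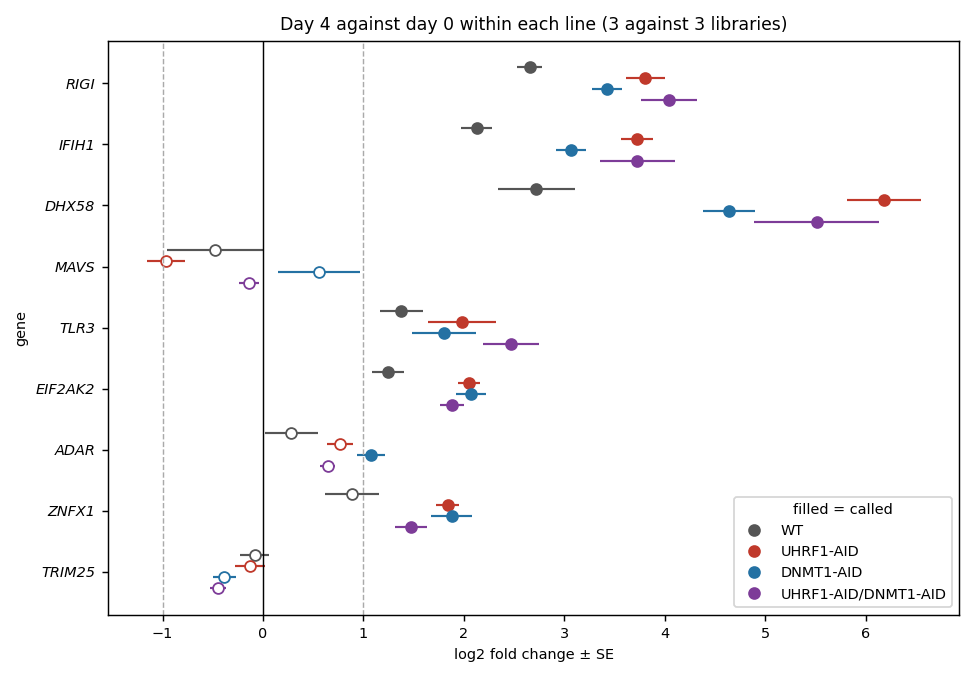
Log2 fold change of each gene from day 0 to day 4 (x axis, ± SE) in WT and the 3 tagged lines, 3 against 3 libraries each; filled points were called and dashed lines mark a log2 fold change of 1 in either direction. RIGI, IFIH1 and DHX58 rose in WT cells by 2.13 to 2.72 and in the tagged lines by 3.07 to 6.18.

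Whether a line's change over 4 days differed from that of WT was tested as an interaction in 1 fit of all 24 libraries. The day effect of RIGI, IFIH1 and DHX58 was larger than in WT in UHRF1-AID cells and in the double line. In UHRF1-AID cells the difference was 1.09 ± 0.27 (SE, adjusted p = 0.0189) for RIGI, 1.54 ± 0.28 (SE, adjusted p = 0.00295) for IFIH1 and 3.40 ± 0.66 (SE, adjusted p = 0.00572) for DHX58, so 3 of the 9 were called against 2.82% of all genes. EIF2AK2 passed without the minimum fold change (0.75 ± 0.20 SE, adjusted p = 0.0314; 5.62% of all genes did). RIGI was not called there without WT day 0 replicate 1 (1.05, adjusted p = 0.0512), WT day 0 replicate 2 (1.04, adjusted p = 0.0574) or UHRF1-AID day 4 replicate 2 (0.86, adjusted p = 0.0406). ZNFX1 (0.90 ± 0.31 SE, adjusted p = 0.0936) was called without WT day 0 replicate 3 (1.12) or WT day 4 replicate 3 (1.15).

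In the double line the difference from the day effect of WT was 1.38 ± 0.27 (SE, adjusted p = 0.00253) for RIGI, 1.59 ± 0.28 (SE, adjusted p = 0.00127) for IFIH1 and 2.78 ± 0.61 (SE, adjusted p = 0.00839) for DHX58, again 3 of 9 (4.47% of all genes), and EIF2AK2 passed without the minimum fold change (0.63 ± 0.20 SE, adjusted p = 0.0486; 11.1% of all genes did). DHX58 lost its call without WT day 0 replicate 1 (2.53, adjusted p = 0.0541) and without the 3 libraries whose counts fell with gene length (2.74, adjusted p = 0.0593). In DNMT1-AID cells edgeR called none of the 9, where 0.248% of all genes were called and 0.401% passed without the minimum fold change. At an unadjusted p under 0.05 there were 6 of 9, against 2617 of all 15699 genes. DESeq2 called 1, DHX58. The differences were 0.76 ± 0.27 (SE, adjusted p = 0.1796) for RIGI, 0.92 ± 0.28 (SE, adjusted p = 0.131) for IFIH1 and 1.91 ± 0.62 (SE, adjusted p = 0.162) for DHX58. Without WT day 0 replicate 3, 3 genes were called, IFIH1 (1.06), ADAR (1.03) and ZNFX1 (1.204), and without DNMT1-AID day 0 replicate 3 ZNFX1 was (1.27).

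UHRF1-AID and DNMT1-AID cells were compared directly at day 4, across folders. None of the 9 was called by edgeR or by DESeq2, against 5.31% of all genes, and 4 had an unadjusted p under 0.05, as had 4373 of all 14080 genes. IFIH1 (0.52 ± 0.16 SE, adjusted p = 0.0564) and DHX58 (0.64 ± 0.25 SE, adjusted p = 0.121) had higher means in UHRF1-AID cells without passing, and their libraries overlapped. For RIGI the log2 fold change was 0.12 ± 0.20 (SE, adjusted p = 0.726). MAVS was lower in UHRF1-AID cells (-0.78 ± 0.19 SE, adjusted p = 0.0283) with no overlap of libraries, and was the 1 gene to pass without the minimum fold change, as did 13.9% of all genes.

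Within a line at day 4 the same libraries tended to be high or low for several of the genes. Replicate 3 of the double line was the lowest of the 3 for 7 of the 9, RIGI, IFIH1, DHX58, TLR3, EIF2AK2, ADAR and ZNFX1. In DNMT1-AID cells replicate 1 was the highest for the same 7, and in UHRF1-AID cells replicate 1 was the lowest for 6, all of them but ADAR. Over the 12 libraries of day 4, the deviations of log2 CPM from the group mean of RIGI had a Pearson correlation of 0.87 with those of IFIH1, 0.88 with DHX58 and 0.89 with TLR3, and those of DHX58 one of 0.93 with TLR3. With TRIM25 the correlation of RIGI was -0.77 and with MAVS -0.52, while MAVS and ADAR had 0.84. These are descriptions over libraries that share depth and scaling between the genes. How many of all genes were lowest or highest in these libraries was not counted.

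The genes whose log2 CPM was most like each member's over the 24 libraries were named from 15699 genes by Pearson's r, a description over libraries that share depth and scaling. For RIGI they were DTX3L (r = 0.997), DAPP1 (r = 0.995), SP100 (r = 0.994). For IFIH1 they were DTX3L (r = 0.993), SP100 (r = 0.992), RIGI (r = 0.992), so that 2 of the 3 were shared with RIGI and the other was RIGI itself. For DHX58 they were IFITM1 (r = 0.983), IFI27 (r = 0.983), BST2 (r = 0.983), and for TLR3 RASGRP3 (r = 0.973), CASP4 (r = 0.972), CMPK2 (r = 0.972). EIF2AK2 was followed by PARP14 (r = 0.991), SAMD9 (r = 0.991), OAS3 (r = 0.989), and ZNFX1 by OAS3 (r = 0.970), PARP10 (r = 0.969), LGALS3BP (r = 0.969). Many of these, such as IFITM1, IFI27, BST2, OAS3 and CMPK2, are known interferon-induced genes. MAVS was most like EP300 (r = 0.969), FLNC (r = 0.969), SEC16A (r = 0.966), ADAR like BTBD9 (r = 0.955), OSBP2 (r = 0.952), TMEM127 (r = 0.946), and TRIM25 like FAM168B (r = 0.895), TTC7B (r = 0.891), AATF (r = 0.880).

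Genes of the same pathway were counted in 6 lists, whose counts stand beside the percentages of all genes given above for each line. Of 28 interferon and interferon-induced genes, 23 passed the filter for the test of UHRF1-AID cells and 20 were called higher. In DNMT1-AID cells it was 13 of 22, and in the double line 19 of 24, with none lower. The median log2 fold changes of the tested genes were 1.99, 1.58 and 2.11. These counts moved with single libraries and with the filter. Without WT replicate 2 they were 13, 8 and 10. In DNMT1-AID cells the count was 7 without WT replicate 1, and in the double line 12 and 11 without its replicates 1 and 2, while with at least 10 counts in every library, where fewer genes were tested, they were 12, 11 and 12. DESeq2 called 23, 16 and 23.

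Among them BST2 (tetherin, which holds budding virus at the cell surface) stood at 51.2 ± 7.99 CPM in WT (mean ± SD, n = 3), 625 ± 207 CPM in UHRF1-AID, 683 ± 188 CPM in DNMT1-AID and 1037 ± 394 CPM in the double line, with log2 fold changes of 3.65, 3.74 and 4.35. IFI27 rose by 4.68, 5.00 and 5.43 on the log2 scale. XAF1 had 0 or 1 counts in each WT library, 45 to 126 in UHRF1-AID, 19 to 25 in DNMT1-AID and 18 to 66 in libraries of the double line. BST2, IFI27 and XAF1 were called in every alternative fit of the 3 lines that tested them. ISG15, a ubiquitin-like modifier, rose by 1.24, 1.39 and 1.83, IFI44 by 1.5, 1.64 and 1.83 and IFI6 by 1.58, 1.93 and 1.67. In UHRF1-AID cells ISG15 was called in 6 of 13 alternative fits and IFI44 in 10 of 13, and in the double line IFI44 and IFI6 in 6 of 13 each. Leaving out WT replicate 1 or 2 ended each of these 4 calls, as did UHRF1-AID replicate 3 for those of UHRF1-AID cells and replicates 1 or 2 of the double line for its own. ISG15 also lost its call without UHRF1-AID replicate 2 or WT replicate 3 and with no filter on low counts or at least 10 counts in every library. IFI44 and IFI6 lost theirs in the double line without WT replicate 3 and with no filter, and IFI6 with an offset for gene length. The highest adjusted p over these fits was 0.141, for IFI6.

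Of the 4 genes of the OAS family, synthetases and a relative that bind double-stranded RNA, 3, 4 and 3 were called higher and none lower. OAS2 was at 7, 6 and 5 counts in the WT libraries of day 4, and so passed the filter on low counts only through the tagged lines. It was at 245, 909 and 879 counts in UHRF1-AID libraries, 507, 240 and 279 in those of DNMT1-AID and 812, 621 and 172 in libraries of the double line, where replicate 3 was again the lowest. Its log2 fold change was 6.48 ± 0.78 (SE, adjusted p = 0.00133), 5.80 ± 0.46 (SE, adjusted p = 2.32e-06) and 6.48 ± 1.36 (SE, adjusted p = 0.00902). OAS3 rose by 1.43, 1.46 and 1.46 and OASL by 1.48, 1.43 and 1.75. The calls of OASL in UHRF1-AID cells and of OAS3 and OASL in the double line were lost without WT replicate 1 (adjusted p = 0.0928, 0.0858 and 0.103 in edgeR) or 2, and those of the double line also without its replicates 1 or 2. OASL lost its call also without UHRF1-AID replicates 2 or 3 in those cells, and without WT replicate 3 in the double line. With no filter on low counts the adjusted p in edgeR was 0.165 for OASL in UHRF1-AID cells, and 0.0535 for OAS3 and 0.0612 for OASL in the double line. In UHRF1-AID cells OASL was also at an adjusted p of 0.0508 with RLE scaling and 0.0545 with at least 10 counts in every library. OAS1 was called in DNMT1-AID cells (1.58 ± 0.18 SE, adjusted p = 0.00101) and not in UHRF1-AID (1.78 ± 0.55 SE, adjusted p = 0.0809) or in the double line (1.77 ± 0.56 SE, adjusted p = 0.0792), where it was called by DESeq2, with all 24 libraries in 1 fit (which ended the call in DNMT1-AID cells), without UHRF1-AID replicate 1 (2.20, adjusted p = 0.000100) and without replicate 3 of the double line (2.17, adjusted p = 6.68e-14).

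Between sensors and interferon, of 19 adaptors, kinases and transcription factors, all tested, 1 was called in each line, IRF7, an interferon regulatory factor that is itself interferon-induced. It was at 58.3, 58.6 and 65.2 CPM in WT, 135, 208 and 161 CPM in UHRF1-AID, 168, 121 and 136 CPM in DNMT1-AID and 237, 231 and 181 CPM in the double line. Its log2 fold change was 1.51 ± 0.16 (SE, adjusted p = 0.000360), 1.23 ± 0.12 (SE, adjusted p = 1.32e-05) and 1.84 ± 0.11 (SE, adjusted p = 4.32e-11), and it was called in all 13 alternative fits of each line. The median of the 19 genes was 0.32, 0.091 and 0.20.

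Of 14 cofactors and regulators of the RIG-I-like receptors, all tested, edgeR and DESeq2 called none in UHRF1-AID or DNMT1-AID cells, where 4 and 1 passed edgeR without the minimum fold change. RNF125, a ubiquitin ligase that marks RIG-I and MDA5 for degradation, was called lower in the double line (-1.19 ± 0.19 SE, adjusted p = 5.65e-05), and 5 more passed as lower without the minimum fold change. None of 8 eIF2alpha kinases and partners of PKR and none of 12 other double-stranded RNA-binding proteins tested was called by edgeR or DESeq2 in any of the 3 lines. Without the minimum fold change 1, 0 and 2 of the 8 passed edgeR, and 1, 1 and 5 of the 12, all 7 of the latter as lower. At that threshold 17.4%, 7.95% and 38.2% of all tested genes passed in UHRF1-AID cells, DNMT1-AID cells and the double line.

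The interferons that the sensors can induce were few in counts. IFNB1 had 0 counts in all libraries but 4 of day 4, with 6 in a UHRF1-AID library, 3 and 1 in DNMT1-AID libraries and 8 in one of the double line, and was not tested. Of the lambda interferons, IFNL1 was at 4, 0 and 0 counts in WT libraries of day 4 and at 9, 41 and 19 in UHRF1-AID libraries, 15, 10 and 6 in those of DNMT1-AID and 77, 68 and 14 in libraries of the double line. Replicate 3 of the double line, lowest for RIGI, IFIH1 and DHX58, was lowest here too. IFNL2 was at 0, 0 and 3 counts in WT and 40, 18 and 14 counts in the double line, and IFNL3 at 4, 2 and 2 counts in WT, 15, 31 and 17 in UHRF1-AID libraries, 23, 7 and 8 in those of DNMT1-AID and 68, 33 and 12 in libraries of the double line. All 3 were called higher in the double line, with an adjusted p of 0.0147, 0.000223 and 0.00143 in edgeR, and IFNL3 in UHRF1-AID cells (2.62 ± 0.65 SE, adjusted p = 0.0146). With so few counts in WT, they passed the filter on low counts only through the tagged line, so a call of lower was not open to them. Without WT replicate 2 IFNL1 was not called in the double line (adjusted p = 0.0629 in edgeR), nor IFNL3 in UHRF1-AID cells (2.43, adjusted p = 0.0690). IFNL1 and IFNL2 in UHRF1-AID cells and all 3 in DNMT1-AID cells did not pass the filter on low counts. IFNL2 and IFNL3 are near-identical copies, so that the split of reads between them is uncertain.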

How the data were processed

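RNA of 24 libraries (8 groups of 3) was sequenced as 150 bp paired-end reads. Per the study's methods the authors used Trimmomatic to trim reads, STAR for alignment to hg38 and featureCounts for counting over the exons of each gene, and the deposited values are these raw counts. The annotation release, the strand setting and the treatment of reads with several hits are not given in the sources used here, nor is whether cells of day 0 had received doxycycline or auxinole. The deposited tables list 58735 genes beside 92 spike-ins, which entered neither library sizes nor tests.

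The 9 members, the lists and the tests were chosen with earlier results of these data known. Each pair of groups was fitted on its 6 libraries with edgeR 4.0.16 in R 4.3.3 (filterByExpr, TMM, robust quasi-likelihood test, Benjamini-Hochberg adjustment over all genes tested, 13582 to 15699), and differences between day effects in 1 fit of 24 libraries. CPM were scaled by TMM over all libraries. Pathway genes were named as the 3 called with the smallest p per list and line, together with 4 interferons, and others named in a list's account were chosen after their values were seen. Alternatives were RLE scaling, no filter and at least 10 counts in every library, no minimum fold change, DESeq2 1.42.0, a replicate block, an offset for gene length, other libraries in the fit and each library left out. The fits without the 3 libraries whose counts fell with gene length, and the second promoter motif, were added after seeing the data. The fitting functions were tested on simulated data. Some genes of the lists are not reported here.

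Replicate numbers are shared between groups. Deviations of same-numbered libraries from their group means correlated between -0.622 and 0.235 over 11 pairs of groups. Only in UHRF1-AID at day 4 and day 0 were all 3 correlations over 0.1 (0.228, 0.143 and 0.122). The main fits paired no libraries, there or elsewhere, and the replicate block was run only as an alternative. All replicate pairs differed beyond sampling noise (chi-square per degree of freedom of at least 3.59). Tables and figures were made with Python 3.11.15, pandas 2.3.3, scipy 1.17.1 and matplotlib 3.10.9. Promoters were read from RefSeq windows of GRCh38.p14.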

Additional observations from a re-analysis of the deposited data

Results flagged for a closer look

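For 3 of the 9 genes, RIGI, IFIH1 and DHX58, the change from day 0 to day 4 was called different from that of WT cells by the interaction test in edgeR, in both UHRF1-AID cells and the double line. EIF2AK2 passed only without the minimum fold change, as did 5.62% and 11.1% of all genes. In UHRF1-AID cells the differences of the log2 day effects were 1.09 for RIGI, 1.54 for IFIH1, 3.40 for DHX58 and 0.75 for EIF2AK2. In the double line (UHRF1-AID/DNMT1-AID) they were 1.38 for RIGI, 1.59 for IFIH1, 2.78 for DHX58 and 0.63 for EIF2AK2. These differences share the WT libraries of both days. The WT days lie in different alignment folders and the UHRF1-AID days in the same one, so in UHRF1-AID cells the folder and the line cannot be told apart, whereas in the double line both days stand as in WT. Whether UHRF1-AID or the double line differed in this from DNMT1-AID cells, in which edgeR called none, was not tested.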

How the results depend on the processing

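Over all alternatives no member reversed its direction where a call was involved: of 2314 values of the 9 genes, 2245 kept their side of the call, 34 lost a call and 35 gained one. The number of members called fell or rose by over 1.5 times in 5 of the 14 comparisons. With single libraries left out it ran from 3 to 5 in UHRF1-AID, 1 to 4 in DNMT1-AID and 2 to 5 in the double line against WT at day 4, and from 0 to 3 for the day effect of DNMT1-AID minus that of WT, where it was 2 with no filter on low counts and 1 with DESeq2. Without a minimum fold change it was 7 in the double line against WT at day 4 and 1 in UHRF1-AID against DNMT1-AID. Without the 3 libraries whose counts fell with gene length, 5 members were called for the day effect in WT and 5 in DNMT1-AID cells. Causes were not tested. These fits differ from the main ones in their libraries, filter, test or minimum fold change. The replicate block changed no member's call (5, 4 and 4 against WT at day 4, as without it) but ended those of OAS3, OASL and IFI44 in the double line, where the numbers do not pair the libraries. Of 592 values of 16 other genes named, 51 lost a call, 9 gained one and none reversed. With at least 10 counts in every library DHX58 could not be tested against some day 0 groups. At day 0 its 5 to 30 counts a library limit what could be detected.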
